A study of Mus musculus with 116 samples.

Results

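The 72 genes described here are named for proteins of the mitochondrial ribosome. They were chosen by name: every gene whose symbol starts with Mrpl or Mrps followed by a digit. This gave 72 of the 15097 named genes on the array. By name 47 are of the large subunit (Mrpl) and 25 of the small subunit (Mrps). A name alone does not show that a protein is part of the ribosome or of that subunit. Each of the 72 was measured by a single probe, so no second probe could be set against it. The genes were measured in FDB1 cells, a mouse myeloid cell line that needs an added growth factor to live and divide.

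Mitochondrial ribosomes translate the few messages encoded in mitochondrial DNA, which code for membrane subunits of the respiratory chain and of ATP synthase. The ribosomal RNA of these ribosomes is made in the mitochondrion, but all of their proteins are encoded in the nucleus, made in the cytosol and imported. Some of the proteins are homologues of bacterial ribosomal proteins and others have no bacterial counterpart. Growing cells make many ribosomes of both compartments, and Myc is a known activator of such genes.

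The cells were compared in 18 conditions with 2 RNA replicates each, 36 RNAs in all. FI-Delta cells and V449E cells are FDB1 cells that carry a mutant of the GM-CSF receptor; their IL-3 medium held 500 U/mL of the factor and 10% serum, and after 3 washes at 0 hours both were left without factor for 6, 12, 24, 48 or 72 hours. Parental FDB1 cells came from that medium too and were moved at 0 hours to 500 U/mL of GM-CSF for the same times. FI-Delta and V449E cells are therefore set against their own 0 hour cells, and GM-CSF cells against parental 0 hour cells. The labels do not say whether a mutant line came from 1 clone or several. Whether replicate 1 and replicate 2 were separate cultures is not stated either. The p-values therefore cover the spread between these RNAs only, and that spread may be technical.

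RNA of 2 conditions was hybridised to each of 116 spotted arrays, in 58 dye-swap pairs that cover 28 comparisons. The values were taken as log2 ratios of Cy5 over Cy3, which is likely, although neither the base nor the direction is stated. A negative difference below therefore means a lower level in the first named condition if that direction is right, and folds hold if the base is 2. Each RNA lay on 4 to 16 arrays, and precision is limited by that number. The standard error (SE) of a log2 difference had a median of 0.085 over the 72 genes. All levels had equal weight in the fit, and the spread was pooled over all 18 conditions. The SE of a gene is therefore the same in every comparison of 2 conditions and does not reflect the number of arrays. All adjusted p-values are from limma with Benjamini-Hochberg adjustment over the 15097 named genes, at a threshold of 0.05, and n is 2 RNAs per condition throughout. In the GM-CSF course and between FI-Delta and GM-CSF cells the direct arrays of replicate 1 came from print run 1 and those of replicate 2 from print run 2. The replicate values printed below combine all arrays of a replicate, so values within a print run are given apart, from direct dye-swap pairs. Levels of different genes cannot be set against each other on these arrays, and nothing below ranks 1 gene's amount above another's. In these bulk RNAs a lower level per cell and fewer cells that express a gene cannot be told apart.

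Some promoters of these genes hold sequence motifs known from other genes of mitochondrial biogenesis, and the windows of 3 genes that fell in FI-Delta cells at 72 hours are shown here as examples of such motifs. Windows of 300 bases (250 before to 50 after the transcription start, RefSeq, build GRCm38.p6) were available for 64 of the 72 genes, 70 windows in all. The capitals mark a match to CCGGAAG, the core bound by ETS factors such as GABP, or to the palindromic site of nuclear respiratory factor NRF1 with 1 free base in its middle; a match on the reverse strand stands as its reverse complement. The genes shown are not those that fell most but the 3 with the largest significant fall in FI-Delta cells at 72 hours among those whose window held a motif.
Mrpl12, chr11:120484387-120484686, plus strand: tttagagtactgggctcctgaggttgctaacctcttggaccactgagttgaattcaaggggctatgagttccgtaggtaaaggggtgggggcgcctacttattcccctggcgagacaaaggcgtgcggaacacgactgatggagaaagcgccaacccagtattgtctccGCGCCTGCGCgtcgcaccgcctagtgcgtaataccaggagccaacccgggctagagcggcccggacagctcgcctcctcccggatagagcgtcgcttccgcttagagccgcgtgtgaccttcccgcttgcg
Mrpl17, chr7:105811038-105811337, minus strand: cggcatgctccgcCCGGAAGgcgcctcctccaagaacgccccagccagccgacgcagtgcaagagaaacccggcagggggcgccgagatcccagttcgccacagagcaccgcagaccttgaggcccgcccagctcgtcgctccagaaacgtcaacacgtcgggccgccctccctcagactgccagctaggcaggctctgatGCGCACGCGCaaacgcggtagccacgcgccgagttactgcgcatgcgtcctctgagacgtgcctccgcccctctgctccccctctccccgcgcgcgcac
Mrpl48, chr7:100583081-100583380, minus strand, 1 of 4 windows of this gene: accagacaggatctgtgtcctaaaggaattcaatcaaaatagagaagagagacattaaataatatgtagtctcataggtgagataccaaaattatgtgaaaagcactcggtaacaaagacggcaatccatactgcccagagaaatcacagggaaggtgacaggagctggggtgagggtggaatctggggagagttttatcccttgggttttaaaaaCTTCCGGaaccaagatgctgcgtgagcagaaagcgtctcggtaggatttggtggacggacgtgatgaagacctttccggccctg
Mrpl12 codes for the stalk protein of the large subunit and has been reported to bind mitochondrial RNA polymerase. Its window held the NRF1 motif on the reverse strand, at position -81 from the start. Mrpl17, whose protein lies near the exit tunnel, held CCGGAAG at -237 and the NRF1 motif at -49. Mrpl48, whose protein belongs to the central protuberance, held CCGGAAG on the reverse strand at -34.

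Of the 70 windows, 23 held CCGGAAG on either strand (32.9%), against 8.86% of the 32851 windows of 27025 genes in the table. The NRF1 motif with a free base was in 12 windows (17.1%, against 4.6% of all windows). Its stricter form with no free base, whose matches are all matches of the other too, was in 3 (4.29%, against 0.971%). AAGATGGCG, the core of a YY1 site, was in 10.0% of windows, against 1.4% of all windows. CACGTG, the E-box that Myc can bind, was in 10.0% of the windows of these genes and in 7.15% of all windows. At least 1 of the motifs was in 42 windows (60.0%, against 19.2% of all windows). Among genes whose level fell significantly in FI-Delta cells at 72 hours, 11 of 24 windows held a motif (45.8%), against 31 of 46 windows (67.4%) of the other genes. The 24 windows belong to 21 genes, with 4 windows from Mrpl48 alone, and shares per gene were not counted. By motif, CCGGAAG was in 6 of those 24 windows and in 17 of the other 46. The NRF1 motif with a free base was in 4 and 8, and its stricter form in 1 and 2. AAGATGGCG went the other way, with 3 and 4, a larger share of the windows of the fallen genes. CACGTG was in 0 and 7, and none of these splits was tested. These are descriptions of letters in a window and do not show binding.

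After 72 hours without factor, messages of both subunits of the mitochondrial ribosome fell in FI-Delta cells. Of the 72 genes, 26 fell and none rose at an adjusted p under 0.05 (limma), that is 36.1%, against 10.7% of all named genes that fell and 7.85% that rose. The median difference of the 72 genes was -0.20 on the log2 scale, -0.19 in replicate 1 and -0.22 in replicate 2, against -0.0032 for all named genes. The differences ran from -0.62 to 0.33, with quartiles at -0.32 and -0.033. In 63 genes the mean difference was below 0, and in 51 it was below 0 in both replicates. Shares by sign over all named genes are not given, here or below, so these counts have no background. Without regard to multiple testing, 42 genes had p under 0.05 in either direction, against 29.8% of all named genes.

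**Figure D1:**
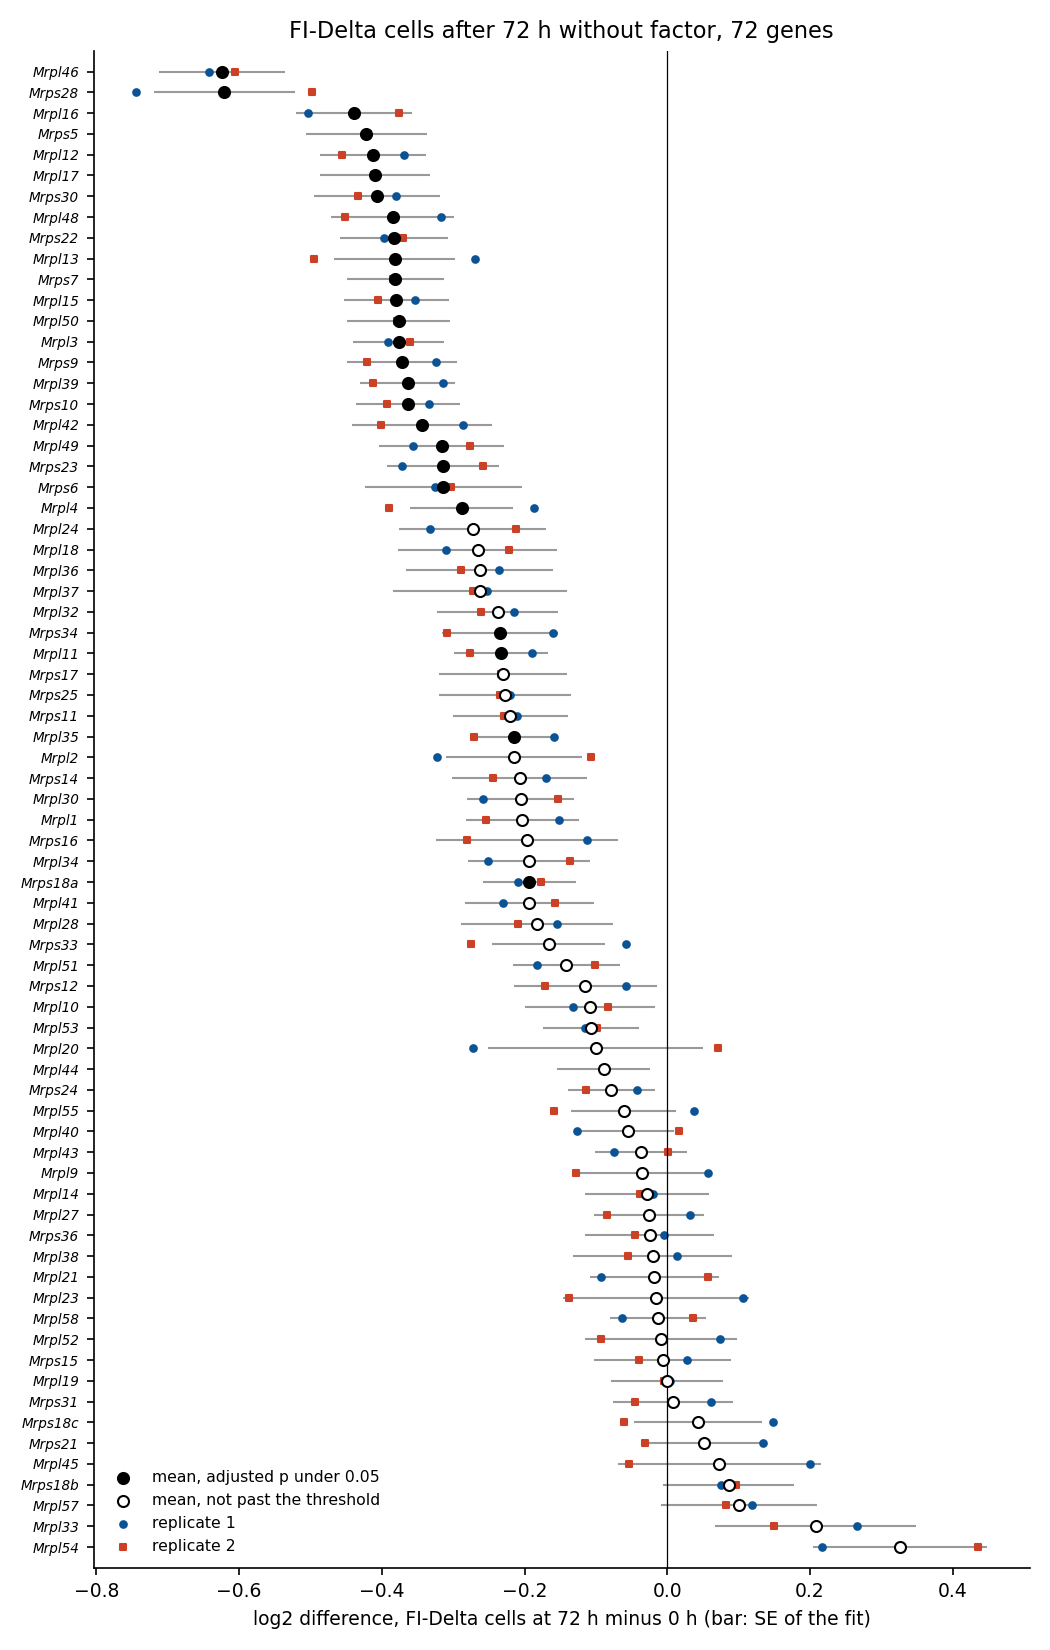
Log2 difference of each of the 72 genes in FI-Delta cells at 72 hours minus 0 hours, with the mean as a black circle (filled at an adjusted p under 0.05, limma), the SE of the fit as a bar and both replicates as coloured points. The 26 filled circles all lie left of 0, from -0.62 for Mrpl46 to -0.19 for Mrps18a, and the genes right of 0 have open circles.

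Mrpl46 and Mrps28 had the largest falls. Mrpl46 codes for a protein of the central protuberance that bacteria lack. Relative to parental 0 hour cells of the same replicate, its log2 level was -0.79 and -0.49 in FI-Delta cells at 72 hours, against -0.15 and 0.11 in FI-Delta cells at 0 hours. Both 72 hour RNAs were below both 0 hour RNAs. The difference was -0.62 (SE 0.089, adjusted p = 5.04e-05, limma), or 0.649 times the 0 hour level. Mrps28 codes for a small subunit protein. Its log2 level was -0.80 and -0.39 in FI-Delta cells at 72 hours, against -0.055 and 0.11 at 0 hours, again without overlap. It fell by 0.62 (SE 0.099, adjusted p = 0.000154).

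Messages for proteins of both subunits followed. Here and below, a gene described by its protein stands for its message, and no protein was measured. Mrpl16, which codes for a bacterial-type large subunit protein, fell by 0.50 in replicate 1 and 0.38 in replicate 2 (mean -0.44, SE 0.081, adjusted p = 0.000582, limma). Mrps5, a bacterial-type protein of the small subunit, fell by 0.42 in each replicate (SE 0.085, adjusted p = 0.00122). Mrpl12, the stalk protein whose promoter is shown above, fell by 0.37 and 0.46 (SE 0.074, adjusted p = 0.000463). These replicate values lie closer to each other than to 0. Mrpl17 fell by 0.41 in both replicates (SE 0.078, adjusted p = 0.000734). Mrps30 fell by 0.38 and 0.43 (SE 0.088, adjusted p = 0.00222); it is counted here with the small subunit by its name, although structures place the protein in the large subunit. Mrpl48, like Mrpl46 a protein of the central protuberance, fell by 0.32 and 0.45 (SE 0.086, adjusted p = 0.00287). All 26 falls had the same sign in both replicates, with a median gap between replicates of 0.084. The 26 were called on the mean of these same replicates, so their agreement in sign is largely set by that choice.

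The smallest of the 26 falls was that of Mrps18a, at -0.19, with replicate values of -0.21 and -0.18 (adjusted p = 0.041). Mrps6, a bacterial-type protein, stood nearest the threshold with -0.31 (replicates -0.32 and -0.30, adjusted p = 0.0487). The falls were spread over both subunits as assigned by name. Of the genes named for the large subunit 15 of 47 fell (31.9%, median -0.19). Of those named for the small subunit 11 of 25 fell (44.0%, median -0.22). Only names decided this, so genes other than Mrps30 may also be counted with the wrong subunit. By the numbers in their names, 42 genes were counted as of the bacterial type and 30 as not. Homology itself was not checked, so single genes may be misplaced. Of the bacterial type 15 fell (35.7%) and of the others 11 (36.7%), with medians of -0.21 and -0.15. The difference between these groups of genes was not tested.

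Not all members moved this way. Mrpl54, a large subunit protein that bacteria lack, had the highest difference, 0.33, with replicate values of 0.22 and 0.44, and did not pass (adjusted p = 0.0679). Mrpl33 had 0.21, Mrps15 -0.0063 and Mrpl52 -0.0091, none past the threshold, and the replicate values of Mrpl19 were 0.0038 and -0.0038.

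The size of this count leaned on single RNAs. Calls over all named genes are not given for fits with an RNA left out. A general loss of calls therefore cannot be told from one particular to these genes. Without 1 of the RNAs of the comparison at a time, 12 to 21 genes were called: 12 without replicate 2 of the 0 hour cells, 13 without replicate 1 of the 0 hour cells, 14 without replicate 1 at 72 hours and 21 without replicate 2 at 72 hours. Of the genes named above, Mrpl46, Mrps28, Mrpl16 and Mrpl17 were called in each of these 4 fits. Mrps5 was not called without replicate 2 at 0 hours (-0.35) or without replicate 1 at 72 hours (-0.33). Mrpl12 lost its call without replicate 1 at 0 hours (-0.35). Mrpl48 lost it without replicate 2 at 0 hours (-0.29) or replicate 1 at 72 hours (-0.35), and Mrps30 without replicate 1 at 0 hours (-0.36) or at 72 hours (-0.35). Mrps6 was called in none of the 4 fits.

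Markers of other cell states moved in the same comparison. Of 11 macrophage markers 5 rose and none fell (median 0.51, with Ctss, cathepsin S, at 1.30), and of 10 neutrophil markers 6 rose and none fell (median 1.15, with Ltf, lactoferrin, at 2.68). Of 8 mast cell and basophil markers 4 fell (median -0.41, with Cpa3 at -2.87), and of 6 progenitor markers 3 fell (median -0.45, with Cd34 at -1.21). Ratios between samples show no absolute level, so no marker can be said to be absent. The part of these shifts in cell state in the fall of the ribosomal protein messages was not tested.

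The fall was not steady over time in FI-Delta cells. At 6 hours 2 genes fell (background 0.722% of all named genes) and none rose (background 0.497%), with a median of -0.10. The replicates differed there, with a median of -0.039 in replicate 1 and -0.18 in replicate 2. The 2 genes were Mrps5 at -0.37 (replicates -0.17 and -0.58, adjusted p = 0.0288) and Mrpl12 at -0.30 (adjusted p = 0.0499). Without replicate 1 or 2 of the 0 hour cells or replicate 2 at 6 hours no gene passed at 6 hours, and without replicate 1 at 6 hours 5 did. At 12 hours 15 genes fell (20.8%, background 4.34%) and none rose (background 2.45%), with a median of -0.12, or -0.087 in replicate 1 and -0.17 in replicate 2. Mrps5 had the largest fall, -0.51 (replicates -0.40 and -0.61, SE 0.085, adjusted p = 0.00102). It was followed by Mrpl13 at -0.41, Mrpl46 at -0.40, Mrpl18 at -0.39 and Mrps10 at -0.37. Of the small subunit genes 8 of 25 fell at 12 hours, and of the large subunit genes 7 of 47.

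At 24 hours none of the 72 genes passed in FI-Delta cells (median -0.054; background 1.3% higher and 0.702% lower), and 10 had an unadjusted p under 0.05 (background 13.3%). At 48 hours Mrpl50 was lower (-0.27, adjusted p = 0.0277) and Mrps18c higher (0.31, replicates 0.47 and 0.14, adjusted p = 0.0486), with a median of -0.029 and backgrounds of 2.31% and 3.04%. With 1 RNA left out at a time 0 or 1 gene passed at 48 hours, and 4 passed with no replicate block. The medians at 24 and 48 hours lay nearer 0 than those at 12 and 72 hours in both replicates. The 12 hour count was fragile. It was 0 without replicate 2 of the 0 hour cells or of the 12 hour cells, 6 without replicate 1 at 0 hours and 9 without replicate 1 at 12 hours. At 12 hours none of the macrophage, neutrophil, mast cell or progenitor markers passed in either direction, with medians of 0.16, 0.41, -0.026 and -0.12. Over all 5 times together, 28 of 72 genes changed in FI-Delta cells by the F test of limma (background 15.7%), led by Mrpl46 (adjusted p = 0.000711), Mrps5 and Mrpl12. The F test count was 13 and 15 without replicate 1 and 2 of the 0 hour cells and 14 without replicate 1 at 72 hours.

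**Figure D2:**
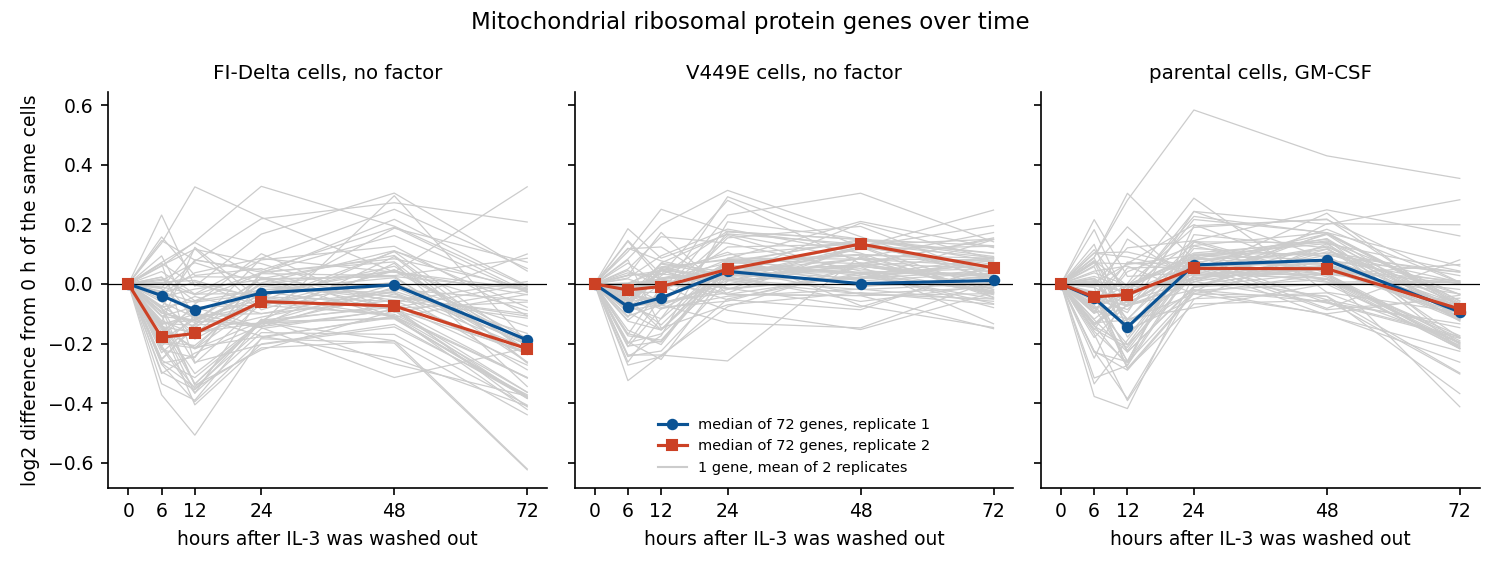
Log2 difference from the 0 hour cells over 0 to 72 hours in FI-Delta and V449E cells without factor and in parental cells moved to GM-CSF. Grey lines are the 72 genes (mean of 2 replicates), and the coloured lines are the median of the 72 genes in each replicate, which ends at -0.19 and -0.22 in FI-Delta cells, 0.012 and 0.054 in V449E cells and -0.094 and -0.084 in parental cells in GM-CSF.

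In V449E cells, left without factor in the same way, none of the 72 genes passed the threshold at 72 hours (median 0.031, replicate medians 0.012 and 0.054), and in this comparison no gene of the 15097 passed, a background of 0%. By unadjusted p under 0.05 (background 4.34%) there was 1 of the 72 genes, Mrps21 at 0.25 (replicates 0.058 and 0.44), a bacterial-type small subunit protein named here after its values were seen. No gene of the 72 passed at 6, 12, 24 or 48 hours either, with medians of -0.050, -0.015, 0.042 and 0.062. The backgrounds there were 0.57%, 0.775%, 0.828% and 0.00662% higher and 0.47%, 0.894%, 0.676% and 0% lower. By unadjusted p under 0.05 these times had 10, 10, 6 and 5 genes of the 72, with backgrounds of 9.22%, 12.8%, 11.9% and 6.61%.

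Over the whole V449E course the F test found 9 of 72 genes changed (background 5.74%). Mrpl12 had the lowest p (adjusted p = 0.0132). Its differences from 0 hours at 6, 12, 24, 48 and 72 hours were -0.22, -0.28, -0.029, 0.079 and -0.017 in replicate 1 and -0.27, -0.17, 0.048, 0.17 and -0.071 in replicate 2. Both replicates were below their starting level at 6, 12 and 72 hours and above it at 48 hours, and at 24 hours they lay on either side of it. Mrpl42 (adjusted p = 0.0140), a protein that bacteria lack, ran -0.18, -0.0087, 0.23, 0.13 and 0.19 in replicate 1 and -0.22, -0.080, 0.24, 0.48 and 0.095 in replicate 2. Mrps25 (adjusted p = 0.0189), a mitochondria-specific small subunit protein, ran -0.22, -0.19, 0.11, 0.063 and 0.067 in replicate 1 and -0.19, -0.20, 0.060, 0.36 and 0.18 in replicate 2. Both were low at 6 hours and above their starting level at 24 hours and later. This count ran from 0 to 9 when 1 RNA at a time was left out, and it was 0 without replicate 2 at 6 hours, 2 without replicate 2 at 48 hours, 3 without replicate 1 at 6 hours, 4 without replicate 1 at 0 hours or replicate 2 at 12 hours, and 5 without replicate 2 at 0 hours.

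The direct question of whether the mutants differ at 72 hours was answered by V449E against FI-Delta cells. There 22 of 72 genes were higher in V449E cells (30.6%, background 10.8%) and none was lower (background 8.86%), with a median of 0.18, or 0.21 in replicate 1 and 0.14 in replicate 2. In 59 genes the mean was above 0, and in 52 it was above 0 in both replicates, with no share over all named genes to set beside them. This comparison and that of FI-Delta cells with their own 0 hour cells share the FI-Delta RNAs of 72 hours, so the 22 and the 26 genes are not independent results.

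Mrpl46 was again first. Relative to parental 0 hour cells its log2 level was -0.099 and -0.18 in V449E cells at 72 hours, against -0.79 and -0.49 in FI-Delta cells, with no overlap. The difference was 0.50 (SE 0.089, adjusted p = 0.000283). Mrps28 was at -0.068 and -0.12 in V449E cells and at -0.80 and -0.39 in FI-Delta cells, a difference of 0.50 (SE 0.099, adjusted p = 0.000785). Mrpl48 was higher in V449E cells by 0.44 (replicates 0.39 and 0.49, adjusted p = 0.000711), Mrpl17 by 0.42 (0.50 and 0.35, adjusted p = 0.000391) and Mrps6 by 0.38 (0.49 and 0.27, adjusted p = 0.0162). The smallest of the 22 differences was that of Mrpl4, 0.22.

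The count was 9 without replicate 1 of the FI-Delta cells, 11 without replicate 1 of the V449E cells, 16 without replicate 2 of the FI-Delta cells and 18 without replicate 2 of the V449E cells. Mrpl46, Mrps28, Mrpl48 and Mrpl17 were called in each of these 4 fits, whereas Mrps6 lost its call without replicate 1 of the V449E cells (0.30) or of the FI-Delta cells (0.33). With arrays scaled to the same spread, 10 genes were called. Beside these genes, 9 of 10 neutrophil markers were lower in V449E than in FI-Delta cells (median -2.45), as were 5 of 11 macrophage markers with 1 higher (median -0.36). Of 8 mast cell and basophil markers 4 were higher (median 0.75), and of 6 progenitor markers 3 were higher and 1 lower. Their part in the result was not tested.

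At earlier times few of these genes passed between the mutants. At 0, 6, 12 and 24 hours none of the 72 passed between V449E and FI-Delta cells (medians -0.062, -0.029, 0.038 and 0.040), with 7, 5, 4 and 5 genes at an unadjusted p under 0.05 (backgrounds 6.15%, 9.14%, 11% and 15%). The backgrounds of adjusted calls were 0.159%, 0.457%, 0.55% and 1.48% higher, and 0.152%, 0.603%, 0.907% and 2.32% lower. At 48 hours Mrpl16 was higher in V449E cells (0.28, adjusted p = 0.0268), whereas Mrps18c (-0.43, adjusted p = 0.00264) and Mrps15 (-0.34, adjusted p = 0.0235) were lower, with backgrounds of 4.1% and 5.54%. With 1 RNA left out at a time 0 to 2 genes passed at 48 hours, none without replicate 1 of the FI-Delta cells, and 5 passed with no replicate block.

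The difference between the 72 hour responses was tested as such. The FI-Delta response minus the V449E response was below 0 at an adjusted p under 0.05 (limma) in 14 of 72 genes and above 0 in none, with a median of -0.25 and backgrounds of 2.64% and 1.51%. Mrpl46 had -0.62 (SE 0.13, adjusted p = 0.00701), with responses of -0.64 and -0.61 in the FI-Delta replicates and 0.026 and -0.041 in the V449E replicates. The others were Mrps28, Mrps5, Mrps22, Mrpl42, Mrpl48, Mrpl16, Mrps7, Mrpl17, Mrpl15, Mrpl12, Mrpl3, Mrpl39 and Mrpl35. A difference of responses includes the difference between the lines at 0 hours. V449E minus FI-Delta cells at 0 hours ran from -0.25 for Mrpl42 to 0.011 for Mrpl17 among the 14 genes, none past the threshold. In these genes the V449E response lay between -0.044 and 0.14, and the difference of responses between -0.62 and -0.31. Leaving out 1 RNA at a time gave 0 to 9 such genes: 0 without replicate 2 of the V449E 0 hour cells, replicate 2 of the FI-Delta 0 hour cells or replicate 1 of the FI-Delta 72 hour cells, 3 without replicate 1 of the V449E cells at 0 hours or at 72 hours, 5 without replicate 1 of the FI-Delta 0 hour cells, 8 without replicate 2 of the V449E 72 hour cells, and 9 without replicate 2 of the FI-Delta 72 hour cells. With arrays scaled to the same spread the count was also 0, and with print run 1 alone it was 9.

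**Figure D3:**
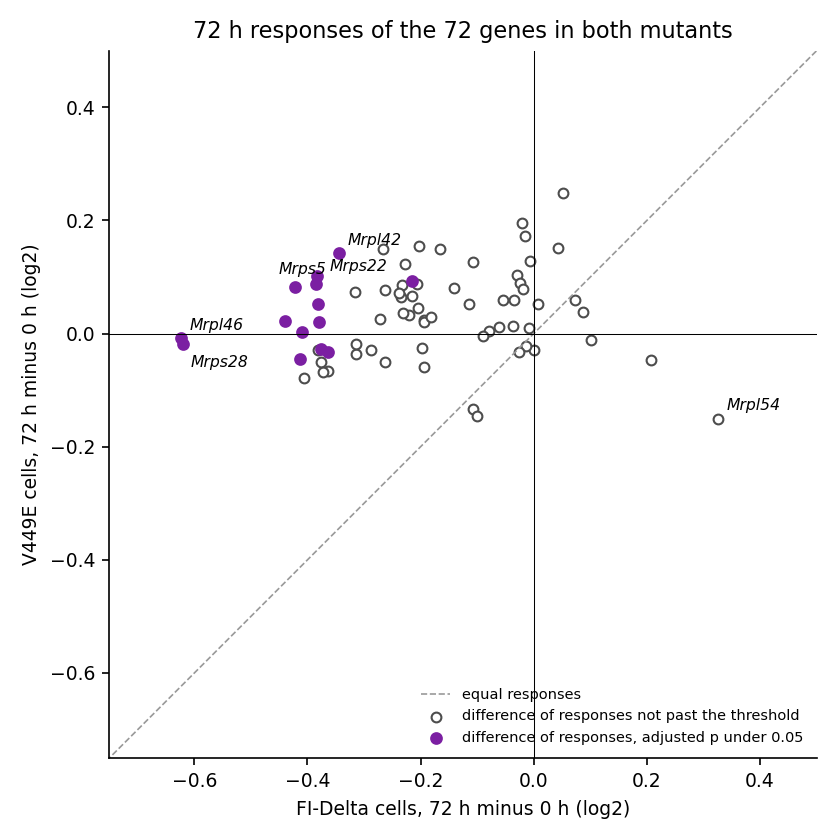
Each point is 1 of the 72 genes, with its log2 difference at 72 hours minus 0 hours in FI-Delta cells on the x axis and in V449E cells on the y axis. Filled points are the 14 genes whose responses differed (adjusted p under 0.05, limma), and the dashed line marks equal responses. The filled points lie between -0.62 and -0.22 on the x axis and between -0.044 and 0.14 on the y axis.

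At 0 hours, when IL-3 had just been washed out, none of these genes passed between the mutant and the parental lines. For V449E against parental cells none passed (median -0.027, backgrounds 0.583% higher and 0.351% lower). By unadjusted p under 0.05 there were 13 genes (background 9.9%), with Mrps22 having the lowest p (-0.27, adjusted p = 0.0974). This count of 0 depended on the fit. It was 9 when only the dye-swap pairs of those 2 conditions were used (2 higher and 7 lower) and 14 when levels were weighted by their number of arrays (2 higher and 12 lower). With those weights 946 of all named genes were higher and 1123 lower, against 88 and 53 as reported. For FI-Delta against parental cells at 0 hours none of the 72 passed (median 0.021, backgrounds 0.113% and 0.0132%), and the median in direct pairs was -0.053 within print run 1 and 0.024 within print run 2. By unadjusted p under 0.05 (background 3.69%) there were 2 genes, Mrps12 at 0.34 and Mrpl52 at 0.33, named here after their values were seen.

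In parental cells moved to GM-CSF 6 of the genes were lower at 72 hours and Mrpl52 was higher. At 72 hours 6 genes fell (8.33%, background 3.41%) and 1 rose (1.39%, background 3.82%), with a median of -0.088, or -0.094 in replicate 1 and -0.084 in replicate 2. In direct dye-swap pairs the median was -0.059 within print run 1 and -0.092 within print run 2. In 53 genes the mean was below 0, in 38 of them in both replicates, again with no share over all named genes given. Mrpl46 had a log2 level relative to parental 0 hour cells of -0.56 and -0.26 (mean -0.41, SE 0.089, adjusted p = 0.00546). Mrps28 was at -0.56 and -0.18 (mean -0.37, adjusted p = 0.0235). Mrps30 fell by 0.39 and 0.21 (adjusted p = 0.0384), Mrps7, a protein of the small subunit head, by 0.29 and 0.31 (adjusted p = 0.00823), Mrpl50 by 0.32 and 0.21 (adjusted p = 0.0269), and Mrpl3, which lies near the peptidyl transferase centre, by 0.21 and 0.22 (adjusted p = 0.0397). These 6 genes were all among the 26 that fell in FI-Delta cells, 100% of the shorter list and 23.1% of the longer one. Over all named genes 515 fell in GM-CSF and 1608 in FI-Delta cells at 72 hours, and the overlap of those was not counted. Whether such an overlap is particular to these genes was therefore not tested.

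Among the 18 conditions Mrpl52, a large subunit protein that bacteria lack, had its lowest mean level in parental 0 hour cells (-0.38). V449E cells at 0 hours lay 0.26 above them, not past the threshold (adjusted p = 0.337, limma). At 24 hours V449E cells were 0.31 above their own 0 hour level, also not past it (adjusted p = 0.156, limma). Set against parental 0 hour cells, Mrpl52 went the other way in GM-CSF. Its log2 level relative to parental 0 hour cells was 0.59 and 0.58 at 24 hours (mean 0.58, SE 0.11, adjusted p = 0.0046), 0.52 and 0.34 at 48 hours (mean 0.43, adjusted p = 0.0389) and 0.39 and 0.32 at 72 hours (mean 0.35, adjusted p = 0.0447). Of the 72 genes Mrpl52 alone passed at 24 hours (backgrounds 1.12% higher and 0.344% lower) or at 48 hours (0.98% and 0.603%), where the medians of the 72 genes were 0.062 and 0.065. With an RNA of the comparison left out, 0 to 2 genes passed at 24 hours (0 without replicate 1 of the parental cells, 2 without replicate 2 at 24 hours), no gene passed at 48 hours in any, and the 72 hour call of Mrpl52 was lost in all 4.

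At 6 hours in GM-CSF none passed (median -0.038, 9 genes at an unadjusted p under 0.05 against 11.9% of all named genes, backgrounds of adjusted calls 0.378% higher and 0.212% lower). At 12 hours 3 fell and none rose (backgrounds 2.27% and 1.58%, median -0.066). They were Mrpl18 at -0.42 (adjusted p = 0.0389), Mrpl13 at -0.39 (replicates -0.59 and -0.18, adjusted p = 0.0148) and Mrpl50 at -0.26 (adjusted p = 0.0417). The replicates differed at that time, with medians of -0.14 in replicate 1 and -0.036 in replicate 2. In direct pairs the medians were -0.14 within print run 1 and -0.0047 within print run 2, and replicate and print run cannot be told apart here. The 12 hour count was 0 without replicate 1 of the parental or of the GM-CSF cells, 2 without replicate 2 of the parental cells, 6 without replicate 2 of the GM-CSF cells, 1 from direct dye-swap pairs or with arrays scaled to the same spread, and 7 from print run 1 alone.

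Over the GM-CSF course 25 of 72 genes changed by the F test (background 17.4%). The lowest p belonged to Mrps15, a bacterial-type protein (adjusted p = 0.000917), whose differences at 6, 12, 24, 48 and 72 hours were -0.26, -0.40, 0.32, 0.21 and -0.074 in replicate 1 and -0.37, -0.15, 0.070, 0.22 and 0.085 in replicate 2. Mrps24 followed with -0.19, -0.29, 0.070, 0.13 and -0.16 in replicate 1 and -0.11, -0.14, 0.069, 0.18 and -0.076 in replicate 2. Mrps5 had -0.24, -0.34, 0.22, 0.14 and -0.14 in replicate 1 and -0.22, -0.18, 0.11, 0.10 and -0.22 in replicate 2. All 3 were low at 6 and 12 hours and above their starting level at 24 and 48 hours in both replicates. With print run 1 alone this count was 13.

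The 72 hour count in GM-CSF was 1 without replicate 1 of the parental 0 hour cells, 0 without replicate 2 of them, 1 without replicate 1 at 72 hours and 4 without replicate 2 at 72 hours. Mrps7 kept its call in 3 of these 4 fits, Mrpl46, Mrps28 and Mrpl50 in 1, and Mrps30, Mrpl3 and Mrpl52 in none. The 72 hour count was 3 from the dye-swap pairs of those 2 conditions alone and 3 with arrays scaled to the same spread. Of the markers, 7 of 11 macrophage genes rose (median 0.78), 2 of 10 neutrophil genes rose (median 0.37) and 4 of 8 mast cell and basophil genes fell (median -0.83). Their part in the result was not tested.

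**Figure D4:**
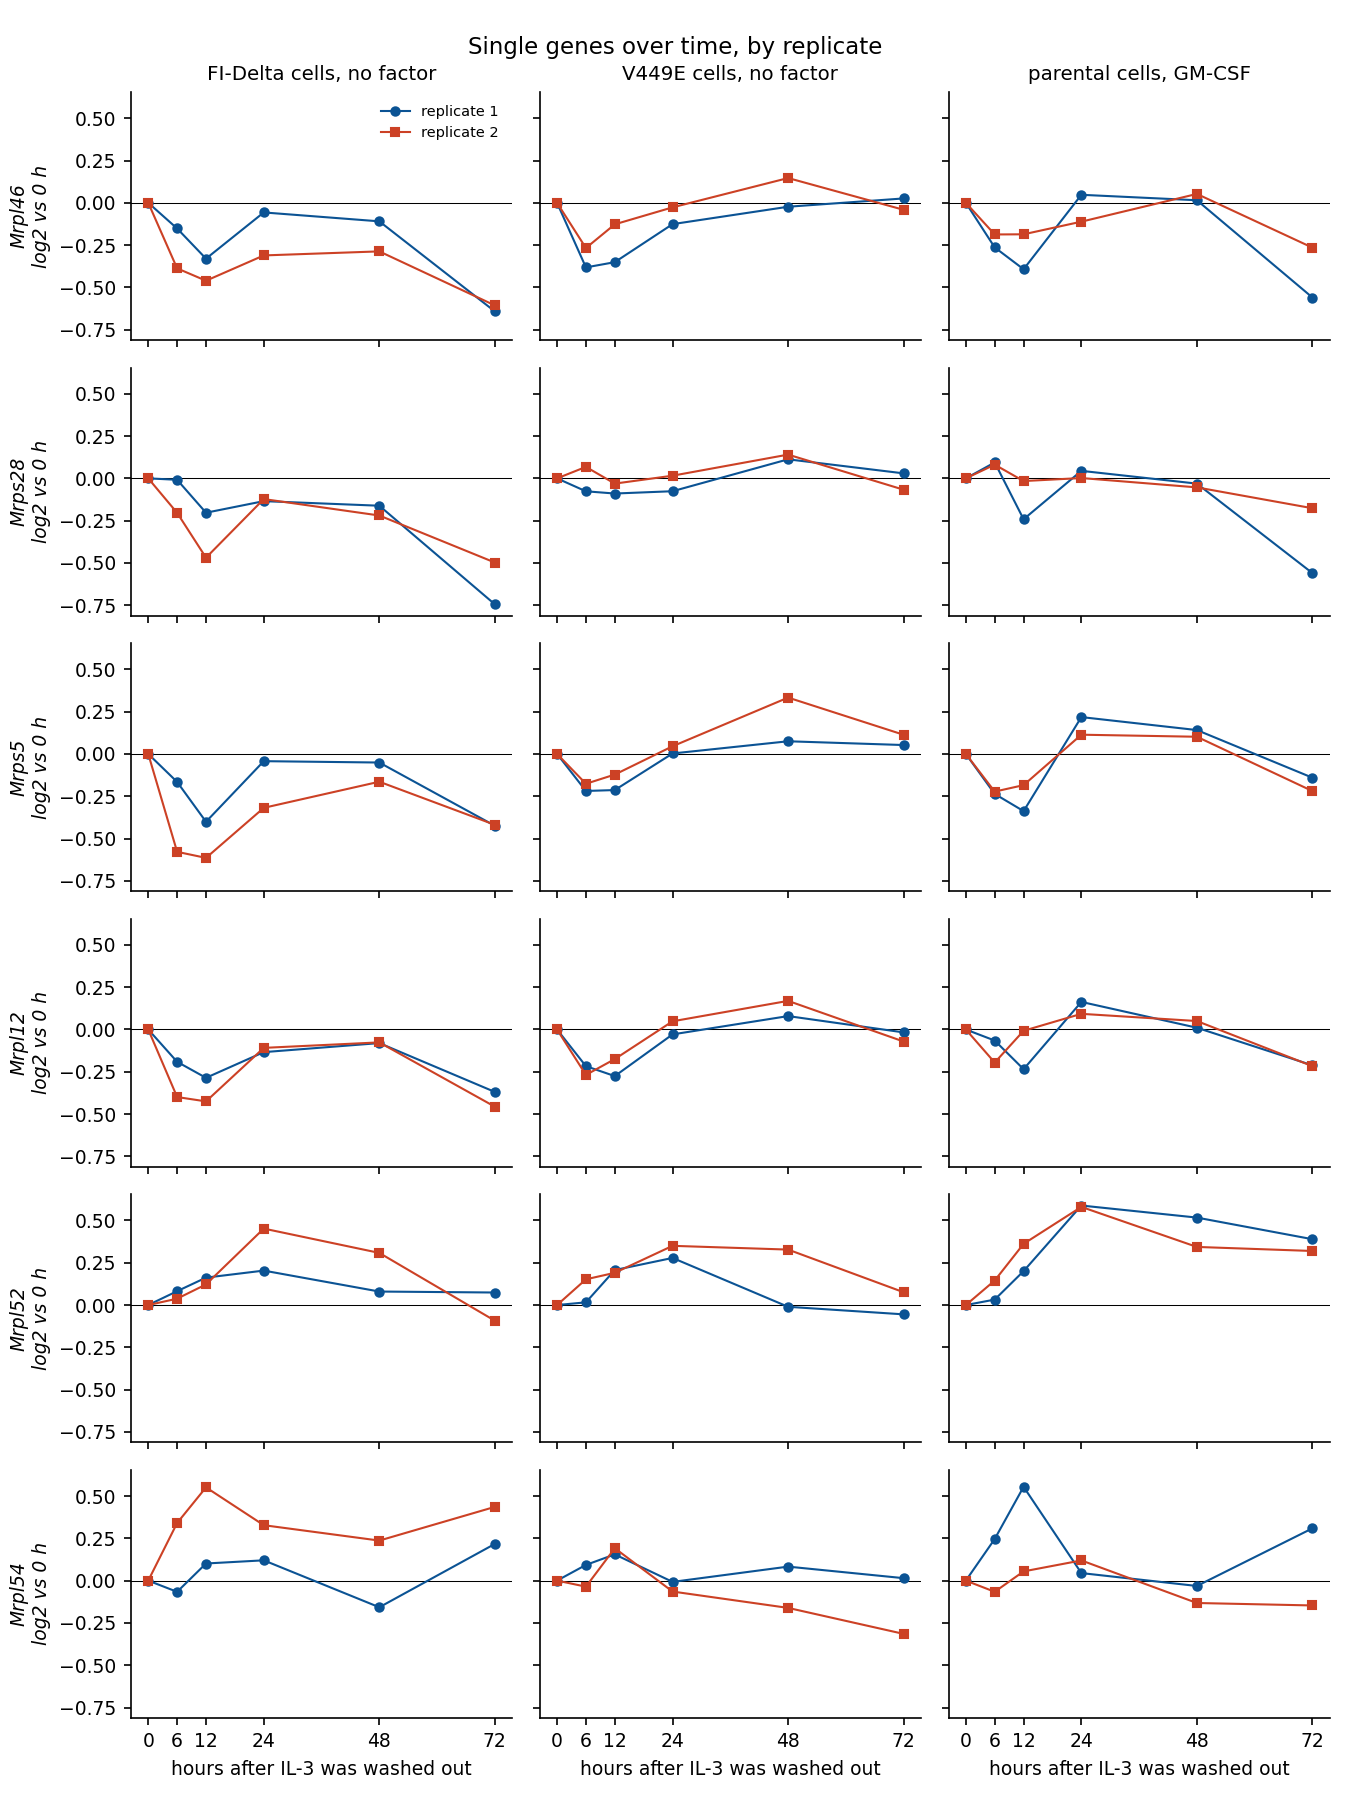
Log2 difference from the 0 hour cells over 0 to 72 hours for Mrpl46, Mrps28, Mrps5, Mrpl12, Mrpl52 and Mrpl54 in FI-Delta cells, V449E cells and parental cells in GM-CSF, with a line for each replicate. Mrpl46 ends at -0.64 and -0.61 in FI-Delta cells, 0.026 and -0.041 in V449E cells and -0.56 and -0.26 in GM-CSF, and Mrpl52 is highest in GM-CSF at 24 hours, at 0.59 and 0.58.

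FI-Delta cells without factor were also set against parental cells in GM-CSF at the same times. At 72 hours 1 of 72 genes passed, Mrps22, a mitochondria-specific small subunit protein, which was lower in FI-Delta cells by 0.33 (replicates -0.49 and -0.17, adjusted p = 0.0339), with backgrounds of 0.616% lower and 0.59% higher and a median of -0.081. In direct pairs the median of the 72 genes at 72 hours was -0.013 within print run 1 and -0.12 within print run 2. This call of Mrps22 was lost in 4 alternatives of the fit and without replicate 1 or 2 of the GM-CSF cells or replicate 1 of the FI-Delta cells. At 6, 12, 24 and 48 hours none passed (medians -0.024, -0.018, -0.12 and -0.064), with 3, 6, 16 and 11 genes at an unadjusted p under 0.05 (backgrounds 8.71%, 8.45%, 11% and 10.3%). The backgrounds of adjusted calls were 0.576%, 0.311%, 0.146% and 0.265% higher and 0.126%, 0.113%, 0.0729% and 0.132% lower. In 60 of 72 genes the 24 hour mean was below 0, with direct pair medians of -0.15 within print run 1 and -0.036 within print run 2. The share of all named genes below 0 at that time is not given. At 6, 12 and 48 hours the direct pair medians were 0.010, 0.089 and -0.076 within print run 1 and -0.070, -0.072 and 0.0046 within print run 2, so their sign differed between the runs. The FI-Delta response minus the GM-CSF response at 72 hours passed in no gene of the 72 (median -0.12, backgrounds 0.00662% higher and 0% lower), and neither did the V449E response minus the GM-CSF response (median 0.12, backgrounds 0.311% and 0.404%). By unadjusted p under 0.05 there were 4 and 12 genes (backgrounds 3.95% and 9.25%). A missed threshold does not show that the responses are alike.

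The 72 genes varied together to different degrees. Over the 18 condition means, Mrpl12 correlated with the mean of the other members at r = 0.92, Mrpl46 at 0.91 and Mrps5 at 0.91. The lowest values were -0.75 for Mrpl54, -0.66 for Mrpl19 and -0.43 for Mrpl21. In 47 members r was above 0.5 and in 6 below 0, with a median of 0.67, against a median of -0.033 for the other named genes. These points share arrays, replicates and normalisation, and the correlations are descriptions. Mrpl54, the member least like the rest, ran -0.066, 0.10, 0.12, -0.16 and 0.22 over the FI-Delta times in replicate 1 and 0.34, 0.55, 0.33, 0.24 and 0.44 in replicate 2, so its replicates differed at most times.

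The other genes most like the mean of the members were Eef1e1 (r = 0.95), a part of the cytosolic aminoacyl tRNA synthetase complex, Ndufs1 (0.95) and Ndufa9 (0.95), subunits of respiratory complex I, Emg1 (0.94), a methyltransferase of ribosome biogenesis, and Slc25a5 (0.94), an ADP/ATP carrier of the inner mitochondrial membrane. In FI-Delta cells at 72 hours their differences were -0.59, -0.31, -0.34, -0.37 and -0.43. In all, 39 genes outside the family had r above 0.9.

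The genes that make, load and use the mitochondrial ribosome were set beside its protein genes in FI-Delta cells at 72 hours. Of 3 genes of mitochondrial ribosomal proteins with other names, 1 fell, Chchd1 at -0.37 (adjusted p = 0.0196, limma). Of 7 mitochondrial translation factors 2 fell and 1 rose. Tsfm, elongation factor Ts, fell by 0.44 (adjusted p = 0.000463) and Gfm1, an elongation factor G, by 0.41 (adjusted p = 0.00179), while Taco1, a translational activator, rose by 0.33 (adjusted p = 0.0186). Of 21 genes of mitochondrial ribosome assembly 4 fell and 1 rose (median -0.13). They included Dhx30, an RNA helicase, at -0.36 (adjusted p = 0.00618), and Mrm2, a methyltransferase of mitochondrial ribosomal RNA, at 0.36 (adjusted p = 0.00189).

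Of 14 genes of mitochondrial DNA maintenance and transcription 3 fell and 1 rose (median -0.082). Lrpprc, which stabilises mitochondrial messages, fell by 0.45 (adjusted p = 0.0138), and Prorp, the nuclease of mitochondrial RNase P, rose by 0.52 (adjusted p = 0.0171). Of 8 mitochondrial aminoacyl tRNA synthetases 3 fell and none rose, with Hars2 at -0.23 (adjusted p = 0.0248). Protein import and chaperones had the highest share of these lists, with 13 of 28 genes lower (46.4%) and none higher (median -0.24). Hspd1, the chaperonin of the matrix, fell by 0.85 (adjusted p = 5.03e-05), Timm8a1, an import chaperone, by 0.80 (adjusted p = 1.92e-05) and Tomm40, the pore of the outer membrane, by 0.59 (adjusted p = 0.000119).

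Oxidative phosphorylation had 19 of 70 genes lower (27.1%) and none higher (median -0.15). Sdhd, a subunit of complex II, fell by 0.58 (adjusted p = 0.00016) and Atp5b, the catalytic subunit of ATP synthase, by 0.45 (adjusted p = 0.0045). Of the 67 cytosolic ribosomal protein genes 8 fell (11.9%) and none rose (median -0.11), led by Rpl22l1 at -0.73 (adjusted p = 0.000856). That share is close to the 10.7% of all named genes. Of 10 regulators of mitochondrial biogenesis 2 fell and 1 rose. C1qbp, a matrix protein that binds RNA, fell by 0.92 (adjusted p = 5.36e-07) and Myc by 0.59 (adjusted p = 0.0107), while Mxd1, an antagonist of Myc, rose by 1.21 (adjusted p = 0.000848). Differences between these lists were not tested.

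**Figure D5:**
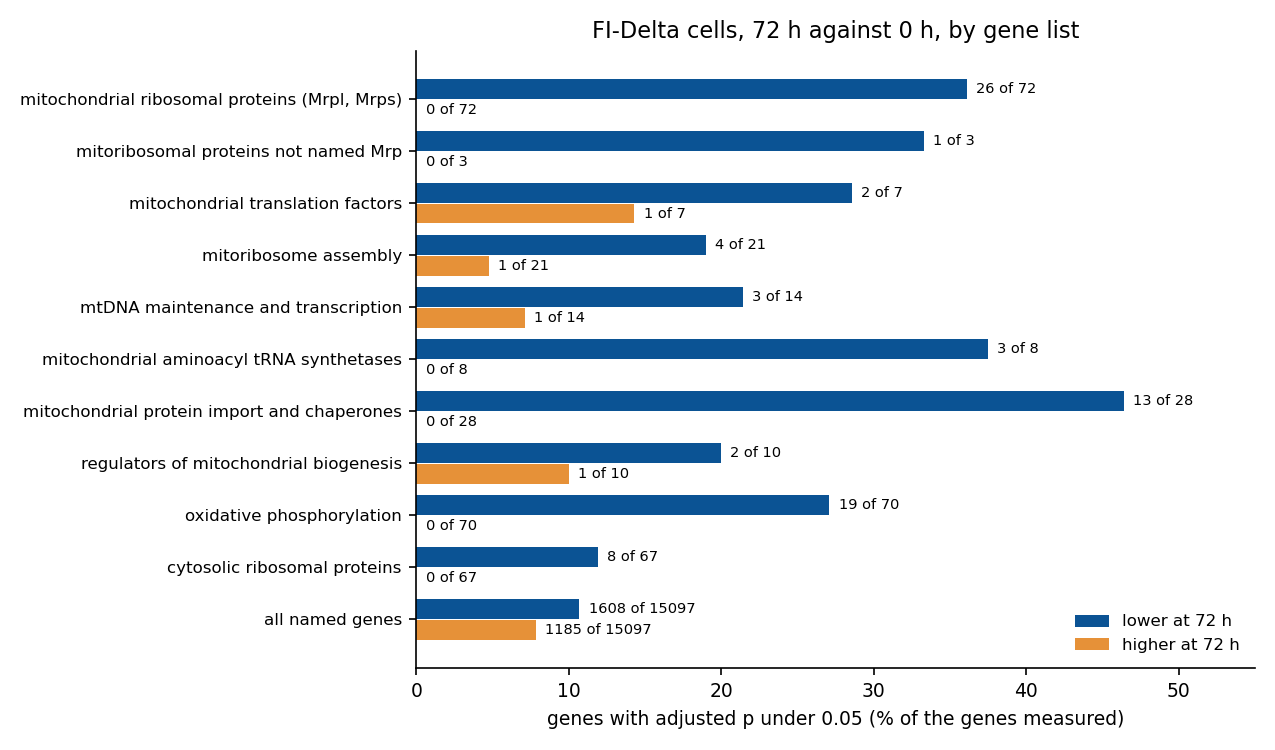
Share of the measured genes of each list that were lower (blue) or higher (orange) in FI-Delta cells at 72 hours than at 0 hours at an adjusted p under 0.05 (limma), with the counts beside the bars. The mitochondrial ribosomal proteins had 26 of 72 lower, protein import and chaperones 13 of 28, oxidative phosphorylation 19 of 70 and cytosolic ribosomal proteins 8 of 67, against 1608 of all 15097 named genes.

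In the other comparisons the same lists stood as follows. At 12 hours in FI-Delta cells 11 of 28 import genes fell (39.3%, background 4.34%, median -0.25) and 5 of 70 oxidative phosphorylation genes fell (7.14%, median -0.16). At that time 1 of 67 cytosolic ribosomal protein genes fell and 2 rose (1.49% and 2.99%, the second against a background of 2.45%, median 0.0043). In GM-CSF at 72 hours 7 of 28 import genes fell (25%, background 3.41%). None of the 70 oxidative phosphorylation genes passed there (6 at an unadjusted p under 0.05, background 18.9%), and 2 of 67 cytosolic ribosomal protein genes fell (2.99%, near the background). In V449E against FI-Delta cells at 72 hours 10 of 28 import genes (35.7%), 13 of 70 oxidative phosphorylation genes (18.6%) and 10 of 67 cytosolic ribosomal protein genes (14.9%) were higher, against a background of 10.8%, and none of these lists had a lower gene.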

How the data were processed

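The deposited values, ratios of 2-colour arrays on a log scale, were taken as log2. Per the labels, the authors normalised the values and later reordered the spots to the layout of print run 2, and channel 1 is Cy5 and channel 2 Cy3. Per the submitters' processing notes limma was used, with no version given. The log base and direction, and how background was corrected and arrays were normalised, are not given in the sources used here. No column of another series was used. Print run 1 has 90 arrays and print run 2 has 26, which hold the replicate 2 arrays of 3 sets (the GM-CSF course, FI-Delta versus GM-CSF, and the 0 hour FI-Delta versus parental cells) and a second set for V449E versus parental cells at 0 hours.

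The arrays have 23040 probes. Without 1243 controls, 21797 remained: 16651 with 1 gene symbol, 137 with several and 5009 with none in the platform annotation. The 2 missing values lay on controls. Array medians ran from -0.016 to 0.011. The 2 arrays of all 58 dye-swap pairs correlated negatively over all probes (r from -0.65 to -0.033). Over the mitochondrial ribosomal protein genes alone, r was negative in 51 of the 58 pairs and not in the others. It ran from -0.65 to 0.30 there, with a median of -0.29.

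Probes of 1 symbol were averaged, each dye-swap pair was averaged with the sign of 1 array turned, and least squares within each replicate gave the levels of the 36 RNAs. Conditions were compared with the lmFit and eBayes functions of limma 3.58.1 under R 4.3.3, on these levels, with 17 residual and 5.57 prior degrees of freedom and 2-sided tests. Every array holds RNAs of 1 replicate number, so the replicate number is a block by construction, and the pairing comes from the labels of the arrays. Benjamini-Hochberg adjustment ran over the 15097 named genes at a threshold of 0.05. The fit was also run on simulated arrays with known changes added to some genes. The outcome is not given here and is not used as support for any call.

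Named genes are, in 8 main comparisons, up to 8 of the largest falls and 5 of the largest rises among the genes called; genes called against the majority; the 3 lowest F test p-values in each line; the 3 members most and the 3 least correlated with the rest; and up to 4 called genes of each related list. Other names were chosen after their values were seen. The members, lists and tests were chosen with earlier results of these data known. The gene lists were mitochondrial ribosomal proteins with other names, translation factors, ribosome assembly, mitochondrial DNA maintenance and transcription, aminoacyl tRNA synthetases, import and chaperones, regulators of biogenesis, cytosolic ribosomal proteins, oxidative phosphorylation, and 4 marker lists. Alternatives were single probes in place of genes, direct dye-swap pairs, no replicate block, print run 1 alone, arrays scaled to the same spread, median centring, levels weighted by their arrays, medians over probes, updated symbols, and each RNA left out in turn. Signal intensities were not used here.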

Additional observations from a re-analysis of the deposited data

Results flagged for a closer look

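The 72 hour response differed between FI-Delta and V449E cells, by the test of the difference itself, in 14 of the 72 genes (limma, adjusted p under 0.05), with the FI-Delta response the lower one in all 14, against 2.64% of all named genes with a lower and 1.51% with a higher one. The count was 0 to 9 with 1 RNA left out at a time (0 without replicate 2 of the V449E 0 hour cells, replicate 2 of the FI-Delta 0 hour cells or replicate 1 of the FI-Delta 72 hour cells) and 0 with arrays scaled to the same spread. The FI-Delta response minus the V449E response on the log2 scale was -0.62 for Mrpl46, -0.60 for Mrps28, -0.50 for Mrps5 and -0.49 for Mrps22. It was -0.49 for Mrpl42, -0.47 for Mrpl48, -0.46 for Mrpl16, -0.43 for Mrps7 and -0.41 for Mrpl17. The rest were -0.40 for Mrpl15, -0.37 for Mrpl12, -0.35 for Mrpl3, -0.33 for Mrpl39 and -0.31 for Mrpl35. These values include V449E minus FI-Delta at 0 hours, which ran from -0.25 for Mrpl42 to 0.011 for Mrpl17.

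In 2 of 28 comparisons checked, 1 array stood apart from the other arrays of its comparison in the median of the 72 genes. It was 0.12 on 1 array of V449E at 24 hours against V449E at 0 hours, where the others had 0.015 to 0.033. It was 0.19 on 1 array of V449E at 24 hours against FI-Delta at 24 hours, where the others had -0.030 to 0.00099. The gap was judged by Dixon's 95% critical value, which by its definition chance passes in about 1 of 20 groups of independent values. None of the 72 genes passed in either comparison.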

How the results depend on the processing

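The calls of named genes in the 8 main comparisons, 34 calls of 15 genes, were rerun gene by gene, and none turned its direction under any alternative run. Genes named only for an F test, a correlation or another comparison were not rerun singly. The p-values rest on 2 RNAs per condition. With an RNA left out, its partner is assumed to vary like the other groups and the test has fewer samples. Apart from the weighted fit at 0 hours, shares over all named genes are not given for the alternative fits. Whether a count moved more than that of all genes is therefore not shown. The fit with no replicate block called 29 genes in FI-Delta cells at 72 hours, against 26, and moved no count of the 8 main comparisons by over 1.5 times. It moved the 48 hour counts of FI-Delta cells to 4 and of V449E against FI-Delta cells to 5. Using only direct dye-swap pairs gave 3 genes for GM-CSF at 72 hours (7 as reported), 9 for V449E against parental cells at 0 hours (0 as reported) and 0 for FI-Delta against GM-CSF at 72 hours (1 as reported). These pairs alone cannot give the F tests or the differences of responses. Print run 1 alone gave 1 for V449E against parental cells, 0 for FI-Delta against GM-CSF, 9 for FI-Delta minus V449E responses (14 as reported), and F test counts of 13 for GM-CSF (25 as reported) and 4 for V449E (9 as reported). Arrays scaled to the same spread gave 3 for GM-CSF at 72 hours, 10 for V449E against FI-Delta at 72 hours (22 as reported), 0 for FI-Delta against GM-CSF, 0 for FI-Delta minus V449E responses, and F test counts of 16 for GM-CSF and 15 for FI-Delta (28 as reported). Levels weighted by their arrays gave 14 for V449E and 2 for FI-Delta against parental cells at 0 hours, 0 for FI-Delta against GM-CSF, and F test counts of 15 for GM-CSF and 3 for V449E. With 1 RNA left out at a time the counts ran from 0 to 4 for GM-CSF at 72 hours, 12 to 21 for FI-Delta at 72 hours, 9 to 18 for V449E against FI-Delta, 0 to 1 for FI-Delta against GM-CSF, 0 to 9 for FI-Delta minus V449E responses, and 17 to 27, 0 to 9 and 13 to 30 for the F tests of GM-CSF, V449E and FI-Delta. The left-out fits for the F tests, the responses and the other 20 comparisons were chosen after seeing the data. Beyond leaving out RNAs, 27 of 180 counts of those 20 comparisons moved by over 1.5 times and 29 of 306 reruns of those 34 calls lost the call. The median for V449E against parental cells at 0 hours was -0.091 from pairs of print run 1 and -0.035 from those of print run 2 (-0.027 as reported). Where a value moved, the cause was not tested.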
